A study of Mus musculus with 4 samples.

Results

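The genes described here encode the beta subunits of the sodium pump and the calcium-transporting ATPases that clear calcium from the cytosol. They are *Atp1b1* and *Atp1b2*, *Atp2a2* and *Atp2a3*, and *Atp2b1*, *Atp2b2* and *Atp2b4*. The 7 genes were taken by symbol from the 23420 gene symbols of the count tables, and all 7 were among the 16232 genes that passed the filter on low counts. RNA-seq was performed on bulk lysate of prefrontal cortex (PFC) from C57BL6/J mice. The control group had 2 samples from mice injected with GFP-AAV9, which the methods describe as a scrambled shRNA virus. The *Ash1L* shRNA group had 2 samples from mice injected with a GFP-tagged AAV that carries the short hairpin RNA under the U6 promoter, which is active in most cell types. The mice were 6 to 8 weeks old by the series description, and the methods give injection at 5 weeks and a pool of tissue from 3 mice for each sample, whereas the series description counts 3 *Ash1L* shRNA and 2 control mice. Punches were cut where GFP was visible, so uninfected cells were included.

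The sodium pump exports sodium and imports potassium at the cost of ATP and sets the ionic gradients on which firing and transmitter uptake depend. Its beta subunit carries the catalytic alpha subunit to the plasma membrane, and *Atp1b1* is known mainly from neurons whereas *Atp1b2* is known as an adhesion molecule on glia. Calcium that enters during activity is pumped into the endoplasmic reticulum (ER) by the SERCA pumps, encoded by the *Atp2a* genes, and out of the cell by the plasma membrane pumps (PMCA), encoded by the *Atp2b* genes and stimulated by calmodulin.

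Total counts per sample ran from 14251190 in control sample 1 to 35764874 in control sample 2. *Ash1l*, the targeted gene, had 245 and 290 CPM (counts put on 1 scale of library size by TMM) in control samples 1 and 2, and 216 and 138 CPM in *Ash1L* shRNA samples 1 and 2. Both *Ash1L* shRNA samples lay under both control samples, sample 2 farther than sample 1, and the gene fell by 0.60 on the log2 scale (SE, standard error, 0.22). It was not called without control sample 1 (-0.71), control sample 2 (-0.48) or *Ash1L* shRNA sample 2 (-0.31). Its adjusted p was 0.275 in edgeR's quasi-likelihood test, adjusted by Benjamini-Hochberg. Genes were called DOWN or UP at an unadjusted p under 0.05 and a change of at least 1.2-fold, and 1344 genes were DOWN and 1397 UP, while 1 of the 16232 genes had an adjusted p under 0.05. A p-value here sets the group difference against a spread between samples that is estimated with information from all genes. With 2 against 2 samples, few degrees of freedom remain. The sources differ on the number of mice, so whether the samples of a group came from separate mice is not known.

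In the *Ash1L* shRNA samples, 3 of the 7 pump genes were DOWN, namely *Atp1b1*, *Atp2a3* and *Atp2b2*, and 0 were UP. *Atp2b1* was DOWN as well, which made 4, by edgeR's likelihood ratio test and by DESeq2. Among all genes tested, 8.28% were DOWN and 8.61% UP, or 16.9% in either direction. The 2 *Ash1L* shRNA samples lay under both control samples for 5 of the 7 genes, which also held for 26.8% of all genes tested, and lay over both for 0 of the 7, which held for 26.5% of all. The fitted log2 fold change was below 0 for all 7 under TMM scaling, against 50.3% of all genes, but that of *Atp2a2* and *Atp2b4* turned positive when counts were scaled by library size alone. The median of the 7 log2 fold changes was -0.47, against -0.00 over all genes. The 7 genes were chosen with earlier results of these data known, so these comparisons with all genes are descriptions and not tests. Adjusted p-values from edgeR's quasi-likelihood test ran from 0.255 to 0.999 over the 7 genes, so 0 of them lay under 0.05, where 0.00616% of all genes did. In bulk tissue, fewer cells of a type and less RNA per cell cannot be told apart.

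**Figure D1:**
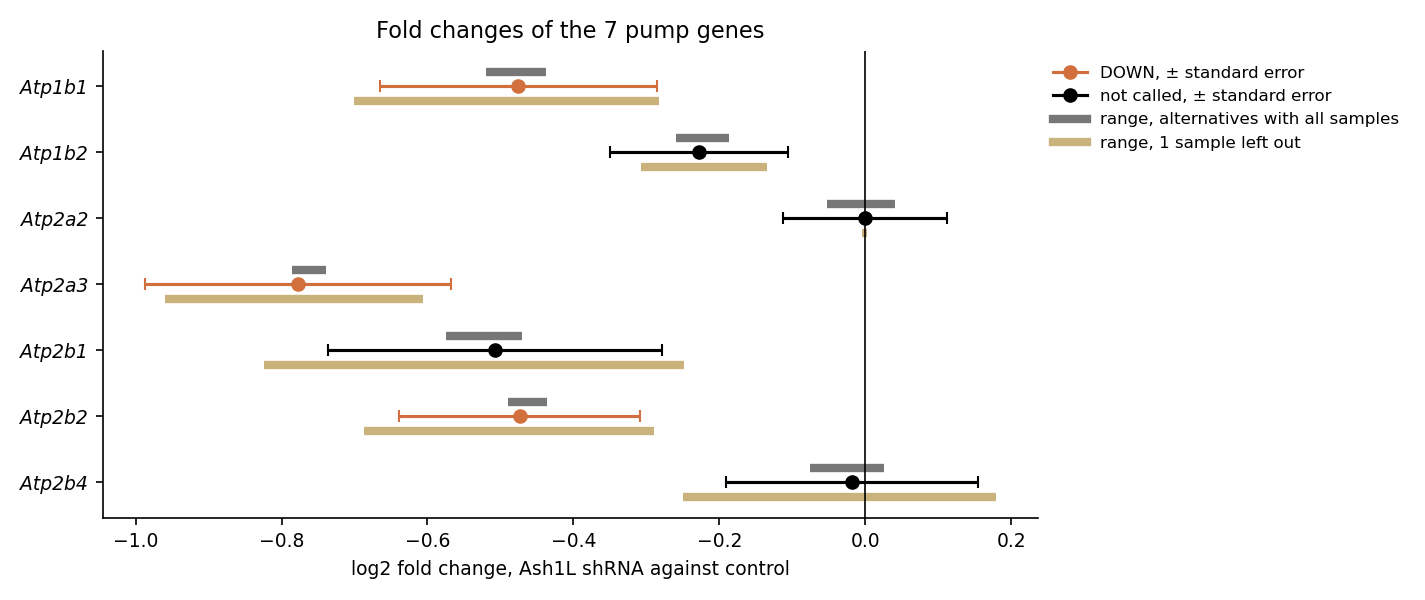
The log2 fold change of each pump gene, *Ash1L* shRNA against control, with its standard error from edgeR (2 samples in each group), coloured where the gene was DOWN. The grey band gives the range over the other analyses of all 4 samples, and the tan band that over the fits without 1 sample. *Atp2a3* lies lowest at -0.78, and *Atp2a2* and *Atp2b4* lie at -0.00 and -0.02.

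Per length of exon, *Atp1b1* was the most abundant transcript, with 319 ± 56.4 RPKM (CPM divided by exonic length in kilobases, SD, n = 2) in control samples. *Atp2a2* followed at 194 ± 1.44 RPKM, then *Atp2b2* at 82.2 ± 7.92 RPKM and *Atp2b1* at 73.1 ± 14.7 RPKM, and these last levels overlapped between the samples. *Atp2b4* had 32.6 ± 3.41 RPKM, *Atp1b2* had 13.6 ± 1.24 RPKM, and *Atp2a3* was lowest at 2.88 ± 0.456 RPKM. The order of the means was the same in *Ash1L* shRNA samples, where *Atp1b1* had 262 and 197 RPKM against 193 and 195 RPKM of *Atp2a2*. In *Ash1L* shRNA sample 2 the levels of these transcripts were therefore almost equal.

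The region before an annotated transcription start is printed for the DOWN genes and for *Atp2b4*, a gene with no call. The sequences are from RefSeq (GRCm38.p6, the assembly of mm10), which had entries for 5 of the 7 genes, among which *Atp2b2* has 3 starts and the most upstream is shown. *Atp1b2* and *Atp2a2* had no entry. Each run holds the 250 bases before the start, 5′ to 3′ on the strand of the gene, and capitals mark GC boxes (GGGCGG on either strand, overlapping matches included).
*Atp1b1*, chr1:164458356-164458605, minus strand: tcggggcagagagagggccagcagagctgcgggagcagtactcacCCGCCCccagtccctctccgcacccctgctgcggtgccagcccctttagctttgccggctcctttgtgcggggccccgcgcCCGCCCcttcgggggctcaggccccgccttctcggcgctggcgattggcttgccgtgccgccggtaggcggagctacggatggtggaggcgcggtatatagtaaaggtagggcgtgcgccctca
*Atp2a3*, chr11:72960919-72961168, plus strand: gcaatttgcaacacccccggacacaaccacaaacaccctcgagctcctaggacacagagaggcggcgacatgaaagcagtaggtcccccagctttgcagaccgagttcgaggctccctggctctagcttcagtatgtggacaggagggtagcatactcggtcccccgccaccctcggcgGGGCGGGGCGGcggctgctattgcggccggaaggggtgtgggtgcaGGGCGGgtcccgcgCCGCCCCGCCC
*Atp2b2*, chr6:114042081-114042330, minus strand: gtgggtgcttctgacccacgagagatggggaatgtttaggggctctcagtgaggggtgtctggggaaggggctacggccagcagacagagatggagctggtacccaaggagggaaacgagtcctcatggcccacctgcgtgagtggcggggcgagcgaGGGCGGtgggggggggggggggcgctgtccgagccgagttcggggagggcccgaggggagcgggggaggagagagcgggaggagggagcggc
*Atp2b4*, chr1:133753748-133753997, minus strand: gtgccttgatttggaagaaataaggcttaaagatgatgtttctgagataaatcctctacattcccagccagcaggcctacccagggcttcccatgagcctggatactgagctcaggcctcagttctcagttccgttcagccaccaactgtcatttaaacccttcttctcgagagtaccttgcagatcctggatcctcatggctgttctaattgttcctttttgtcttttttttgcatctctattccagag
A GC box was found 2 times before *Atp1b1*, 5 times before *Atp2a3*, 1 time before this start of *Atp2b2* and 0 times before *Atp2b4*, and 32.7% of the 32851 RefSeq regions of this length hold at least 1. *Atp2b1*, which was not DOWN in the quasi-likelihood test, had 4 and 3 matches before its 2 starts. CpG dinucleotides numbered 24 before *Atp1b1*, 20 before *Atp2a3*, 16 before *Atp2b2* and 2 before *Atp2b4*, where the median of all regions was 6. *Atp2b1* had the most, 43 and 41 before its 2 starts, so CpG number did not follow the calls. The other starts of *Atp2b2* had 0 and 1 GC boxes and 6 CpG each. The region shown for *Atp2b2* ends at 114042330, inside the gene but close to its 5′ end at 114042613. That for *Atp2b4* ends at 133753997, before an internal start far from the 5′ end of the gene at 133801041. The bases before the 5′ end of *Atp2b4* are thus not shown, and the printed runs cannot compare called with uncalled genes. None of the printed runs holds TATAAA on either strand, which 12.4% of the regions do. These matches describe letters only, and no binding or chromatin mark was measured here.

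Among the beta subunits, *Atp1b1* (ENSMUSG00000026576, mm10 chromosome 1, 164437109 to 164458355, minus strand) had 861 CPM in control sample 1, 1106 CPM in control sample 2, and 807 and 608 CPM in *Ash1L* shRNA samples 1 and 2. The groups did not overlap, but *Ash1L* shRNA sample 1 lay close under control sample 1. The mean was 984 ± 174 CPM (SD, n = 2) in control and 708 ± 141 CPM (SD, n = 2) in *Ash1L* shRNA samples. *Atp1b1* fell by 0.48 on the log2 scale (SE 0.19), with an unadjusted p of 0.0441 and an adjusted p of 0.287 in edgeR's quasi-likelihood test. Without control sample 2 the log2 fold change was -0.29 and without *Ash1L* shRNA sample 2 it was -0.28, and the gene was then not called. Upper-quartile scaling and a fit blocked by replicate number did not call it either, at unadjusted p-values of 0.0514 and 0.0806 in edgeR. The exons of *Atp1b1* share 575 bases with those of *Nme7* on the opposite strand, and the strand setting of the counting is not given in the sources used here. *Nme7* had 56.7 and 68.6 CPM in control and 57.1 and 44.2 CPM in *Ash1L* shRNA samples and was not called (log2 fold change -0.31, SE 0.17).

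*Atp1b2*, the glial beta subunit (ENSMUSG00000041329, chromosome 11, 69599736 to 69605942, minus strand), had 52.0 and 59.2 CPM in control samples 1 and 2 and 47.1 and 47.9 CPM in *Ash1L* shRNA samples 1 and 2. Both *Ash1L* shRNA samples were nearly equal and lay under both control samples. Its log2 fold change was -0.23 (SE 0.12), with an adjusted p of 0.375 in edgeR's quasi-likelihood test, and it was not called. Without control sample 2 the log2 fold change was -0.14. The ratio of *Atp1b1* to *Atp1b2* counts within a sample, which needs no scaling between libraries, was 16.6 and 18.7 in control and 17.1 and 12.7 in *Ash1L* shRNA samples. *Ash1L* shRNA sample 1 lay between the control samples and sample 2 lay under them. The log2 ratio differed by -0.25 (pooled SD 0.23) between the groups, with a two-sided p of 0.667 in an exact permutation test, whose smallest possible p with these samples is 0.333. The test could therefore not show a difference between the neuronal and the glial beta subunit. Without *Ash1L* shRNA sample 2 the log2 difference was -0.04, without *Ash1L* shRNA sample 1 it was -0.47, and without control sample 2 it was -0.17.

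**Figure D2:**
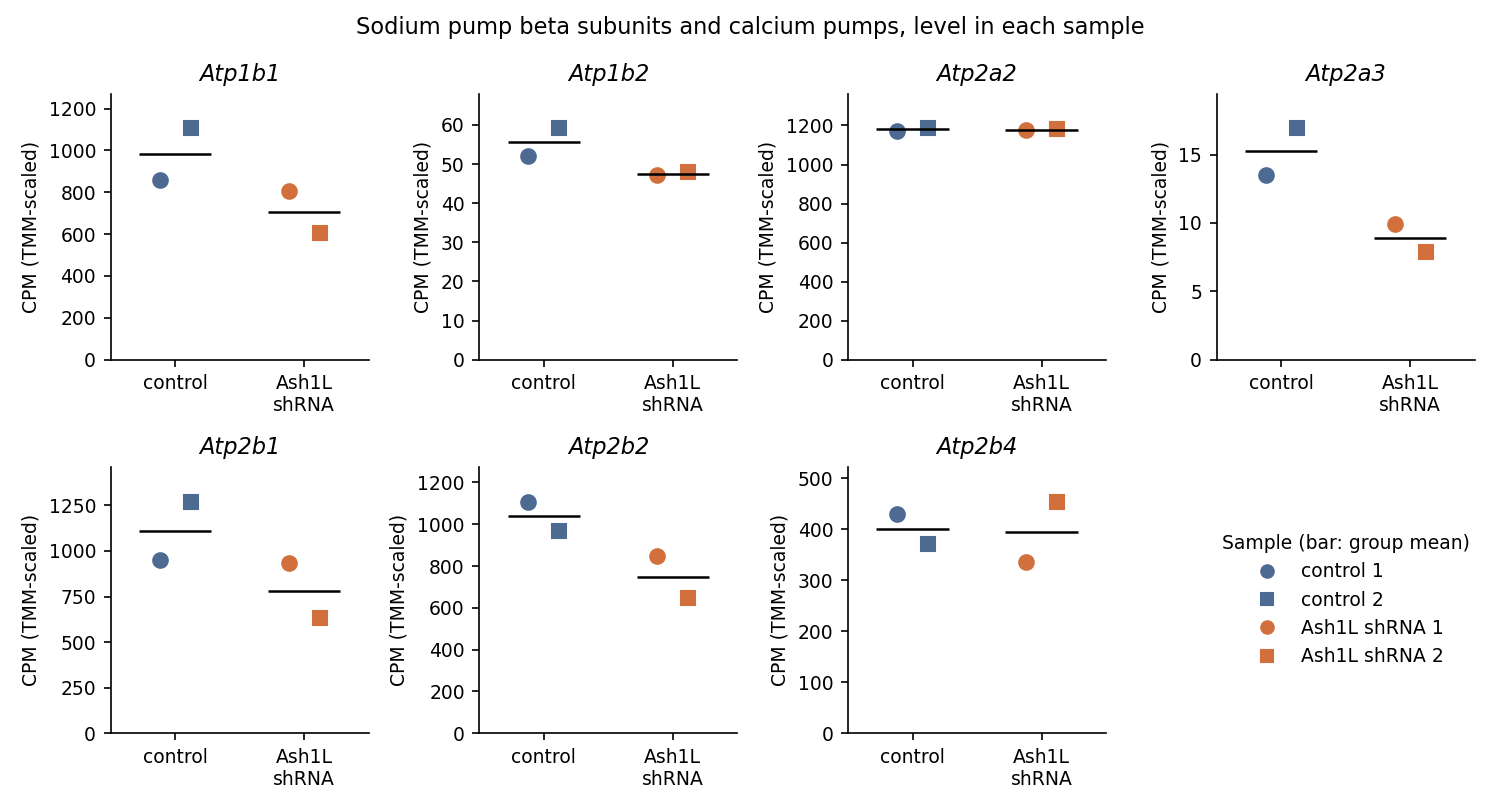
Level of each pump gene in every sample (CPM, TMM-scaled, 1 panel for each gene with its own axis, bars at the group means), 2 control and 2 *Ash1L* shRNA samples. *Atp1b1*, *Atp1b2*, *Atp2a3*, *Atp2b1* and *Atp2b2* are lower in both *Ash1L* shRNA samples, and the groups overlap for *Atp2a2* and *Atp2b4*.

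The ER pumps differed from each other. *Atp2a2* (ENSMUSG00000029467, chromosome 5, 122453513 to 122502225, minus strand), which encodes the SERCA pump used by most cells, had 1174 and 1186 CPM in control samples and 1174 and 1184 CPM in *Ash1L* shRNA samples. All 4 samples lay within a narrow range and the groups overlapped. The log2 fold change was -0.00 (SE 0.11), with an adjusted p of 0.999 in edgeR's quasi-likelihood test.

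*Atp2a3* (ENSMUSG00000020788, chromosome 11, 72961169 to 72993044, plus strand) encodes a SERCA pump known from blood cells, endothelium and some neurons. Its counts of 191 and 594 in control and of 271 and 164 in *Ash1L* shRNA samples 1 and 2 correspond to 13.5 and 16.9 CPM against 9.89 and 7.91 CPM. The groups did not overlap, and this was the DOWN pump gene with the fewest counts. *Atp2a3* fell by 0.78 on the log2 scale (SE 0.21), with an unadjusted p of 0.00902 and an adjusted p of 0.255 in edgeR's quasi-likelihood test. Without control sample 2 its log2 fold change was -0.61 and it was not called. Its counts were 0.0115 and 0.0143 times those of *Atp2a2* in control samples and 0.00842 and 0.00668 times in *Ash1L* shRNA samples. Both *Ash1L* shRNA ratios lay under both control ratios, with a log2 difference of -0.77 (pooled SD 0.23), and the exact permutation test gave its smallest possible two-sided p of 0.333.

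Of the plasma membrane pumps, *Atp2b2* (ENSMUSG00000030302, chromosome 6, 113743831 to 114042613, minus strand), which encodes a fast pump known mainly from neurons, had 1108 and 966 CPM in control samples 1 and 2 and 847 and 646 CPM in *Ash1L* shRNA samples 1 and 2. Both *Ash1L* shRNA samples lay under both control samples. *Atp2b2* fell by 0.47 on the log2 scale (SE 0.17), with an unadjusted p of 0.0270 and an adjusted p of 0.262 in edgeR's quasi-likelihood test. It was not called without control sample 1, at a log2 fold change of -0.36, or without *Ash1L* shRNA sample 2, at -0.29.

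*Atp2b1* (ENSMUSG00000019943, chromosome 10, 98914406 to 99026143, plus strand), the most widely expressed PMCA gene, had 953 and 1270 CPM in control samples 1 and 2 and 934 and 630 CPM in *Ash1L* shRNA samples 1 and 2. *Ash1L* shRNA sample 1 lay just under control sample 1, so the groups were barely apart. The log2 fold change was -0.51 (SE 0.23), close to that of *Atp2b2* but with a larger standard error, and the unadjusted p was 0.0675 in edgeR's quasi-likelihood test. It was therefore not DOWN by this test, but it was by edgeR's likelihood ratio test (unadjusted p of 0.0496) and by DESeq2 (unadjusted p of 0.0246). Without *Ash1L* shRNA sample 1 the log2 fold change was -0.82 and the gene was DOWN. It was -0.25 without *Ash1L* shRNA sample 2 and -0.29 without control sample 2, and the gene was then not called. The counts of *Atp2b2* were 1.16 and 0.761 times those of *Atp2b1* in control samples and 0.907 and 1.03 times in *Ash1L* shRNA samples. These ratios overlapped, with a log2 difference of 0.04 (pooled SD 0.32) and an exact permutation p of 1. The difference was 0.34 without control sample 1, -0.27 without control sample 2, 0.12 without *Ash1L* shRNA sample 1 and -0.05 without *Ash1L* shRNA sample 2.

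*Atp2b4* (ENSMUSG00000026463, chromosome 1, 133699457 to 133801041, minus strand), another PMCA gene, had 429 and 370 CPM in control samples and 336 and 454 CPM in *Ash1L* shRNA samples 1 and 2. The *Ash1L* shRNA samples were the lowest and the highest of the 4. The log2 fold change was -0.02 (SE 0.17), with an adjusted p of 0.967 in edgeR's quasi-likelihood test. Of the RPKM of these 3 PMCA genes, *Atp2b4* made up 18.9% and 15.9% in control samples and 17.6% and 28.6% in *Ash1L* shRNA samples. *Ash1L* shRNA sample 2 thus stood apart, whereas sample 1 lay between the controls. The log2 ratio of *Atp2b4* to *Atp2b1* differed by 0.49 (pooled SD 0.59) between the groups, with an exact permutation p of 0.667. It was -0.01 without *Ash1L* shRNA sample 2, 0.99 without *Ash1L* shRNA sample 1, 0.80 without control sample 1 and 0.18 without control sample 2. The log2 fold change of *Atp2b4* itself was 0.18 without *Ash1L* shRNA sample 1, 0.10 without control sample 1, -0.13 without control sample 2 and -0.25 without *Ash1L* shRNA sample 2.

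**Figure D3:**
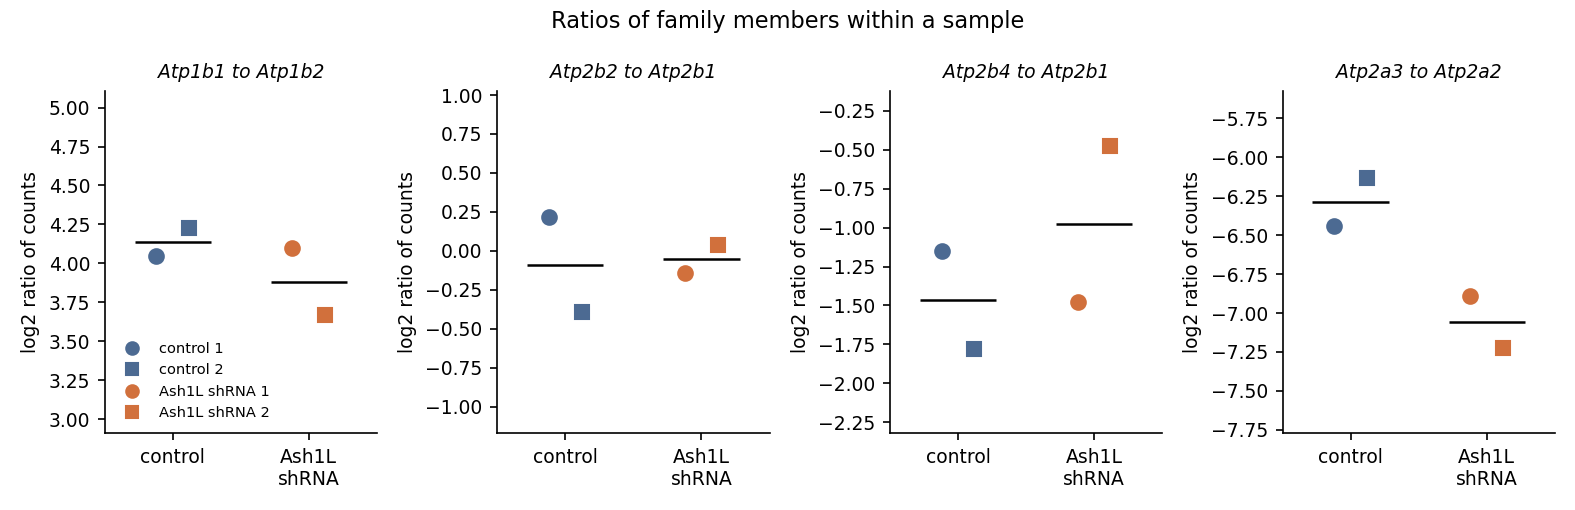
Ratio of counts between pump genes within each sample (on a log2 axis, bars at the group means), for *Atp1b1* to *Atp1b2*, *Atp2b2* to *Atp2b1*, *Atp2b4* to *Atp2b1* and *Atp2a3* to *Atp2a2*. The groups are apart for *Atp2a3* to *Atp2a2*, 0.0115 and 0.0143 in control against 0.00842 and 0.00668 in *Ash1L* shRNA samples, and overlap for the other ratios.

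The *Ash1L* shRNA samples differed in how far the genes lay from the control mean. On the log2 scale *Atp1b1* lay at -0.28 in sample 1 and -0.69 in sample 2, and *Atp2b1* lay at -0.25 and -0.82. The same order held for *Atp2b2*, at -0.29 and -0.68, and for *Atp2a3*, at -0.62 and -0.94. *Atp1b2* lay at -0.24 and -0.22, and *Atp2b4* at -0.25 and 0.18. Over the 4 samples the pump genes with the most similar profiles were *Atp1b1* and *Atp2b1*, at a Euclidean distance of 0.125 between centred log2 CPM, and the least similar were *Atp2b1* and *Atp2b4*, at 0.969. Among 10705 genes expressed above a log2 CPM of 3, the gene nearest in profile was *Creg2* for *Atp1b1* (distance 0.0511), *Brpf3* for *Atp2b2* (0.0117) and *Clcn2* for *Atp2a3* (0.0649). These distances describe likeness over 4 samples only.

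Markers of some cell types moved with the same comparison. Among all genes tested, 8.28% were DOWN and 26.8% were lower in both *Ash1L* shRNA samples. Of 10 markers of excitatory neurons, 5 were DOWN and 9 were lower in both *Ash1L* shRNA samples, and their median was -0.42 on the log2 scale. Their summed level was 2977 and 3478 CPM in control against 2731 and 2230 CPM in *Ash1L* shRNA samples. Measured against the mean of these markers within each sample, the log2 difference between the groups was -0.02 for *Atp1b1* (pooled SD 0.13), -0.03 for *Atp2b2* (0.15) and -0.07 for *Atp2b1* (0.19). For *Atp2a2* and *Atp2b4* it was 0.45 (pooled SD 0.19) and 0.42 (0.43). Of 12 markers shared by neurons in general, 1 was DOWN, with a median of -0.02, and against their mean the log2 difference was -0.43 for *Atp1b1*, -0.44 for *Atp2b2* and -0.47 for *Atp2b1*. The values of *Atp1b1*, *Atp2b1* and *Atp2b2* thus depended on which of these marker lists served as the reference, and the part of cell composition in them was not tested.

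Of 12 astrocyte markers, 8 were DOWN, with a median of -0.76 and summed levels of 6217 and 6525 CPM in control against 4877 and 3485 CPM in *Ash1L* shRNA samples. *Gfap*, *Aqp4* and *Sox9* were not lower in the fit. *Atp1b2*, at -0.23, lay above the astrocyte markers as a whole, by a log2 difference of 0.46 (pooled SD 0.22) against their mean. This was not particular to *Atp1b2*, since the difference was 0.68 for *Atp2a2* (pooled SD 0.19) and 0.65 for *Atp2b4* (0.42). It was 0.21 for *Atp1b1*, 0.20 for *Atp2b2*, 0.16 for *Atp2b1* and -0.06 for *Atp2a3*. Leukocyte markers were low, at 49.2 and 93.2 CPM in sum in control and 36.3 and 19.9 CPM in *Ash1L* shRNA samples, and 7 of the 9 tested were DOWN with a median of -2.60, none of them at 0 in any sample. *Atp2a3* is known from these cells, and their part in its lower level was not tested. Of 10 endothelial markers 0 were DOWN and 1 was UP, with a median of 0.10. Of 8 mural cell markers 0 were DOWN and 1 was UP, with a median of 0.02. Microglial markers had a median of -0.02 and 0 of 10 were called, but their summed level was 956 and 978 CPM in control and 1330 and 508 CPM in *Ash1L* shRNA samples 1 and 2, which lay on either side of the controls. Of 10 interneuron markers 3 were DOWN, with a median of -0.09 and summed levels of 1061 and 1003 CPM in control against 1001 and 942 CPM in *Ash1L* shRNA samples, and oligodendrocyte markers a median of -0.26 with 2 of 10 DOWN. Striatal markers summed to 185 and 186 CPM in control and to 185 and 289 CPM in *Ash1L* shRNA samples, so they were higher in *Ash1L* shRNA sample 2.

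**Figure D4:**
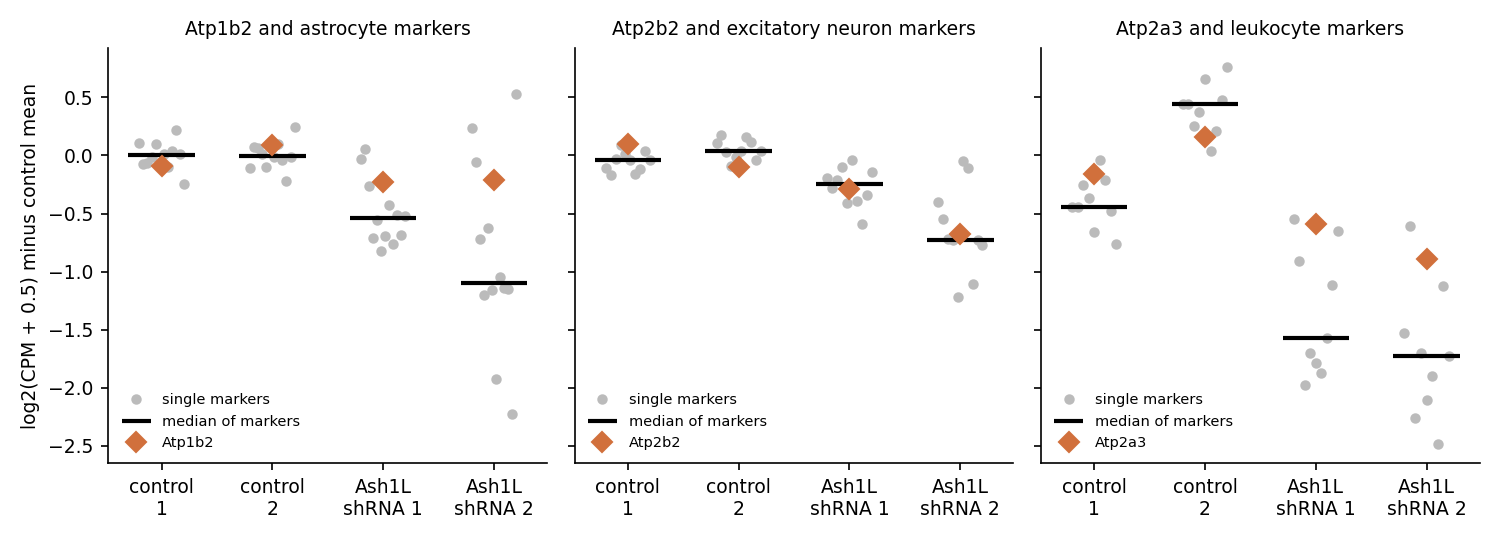
Difference from the control mean in log2(CPM + 0.5) for single marker genes (grey), their median (black bar) and a pump gene (diamond) in each of the 4 samples. *Atp1b2* lies above the median of the 12 astrocyte markers in both *Ash1L* shRNA samples, *Atp2b2* lies near that of the 10 excitatory neuron markers, and *Atp2a3* lies above that of the 9 leukocyte markers in both *Ash1L* shRNA samples.

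Beyond these 7 genes, 10 other genes of sodium and calcium pump subunits, secretory pathway calcium pumps included, had 9 tested members with 2 DOWN, 1 UP and a median of -0.10. Of these 9, 4 were lower in both *Ash1L* shRNA samples and 3 were higher in both, against 26.8% and 26.5% of all genes. Some of the 9 had few counts, and they weigh as much in the median as the others. Among all genes tested, 16.9% were DOWN or UP. The UP gene, *Atp2c2*, which encodes a secretory pathway calcium pump, had 2.34 and 1.80 CPM in control and 2.96 and 11.4 CPM in *Ash1L* shRNA samples, so its rise of 1.81 on the log2 scale (SE 0.65) came mostly from sample 2. Of 17 tested regulators and partners of the pumps, 3 were DOWN and 1 UP, with a median of -0.10. *Fxyd1*, which encodes phospholemman, a small regulatory subunit of the sodium pump, had 13.5 and 15.3 CPM in control and 10.04 and 8.40 CPM in *Ash1L* shRNA samples and fell by 0.64 on the log2 scale (SE 0.19). *Nkain4* fell by 0.85 (SE 0.29) and *Nkain2* by 0.75 (SE 0.28), which encode proteins that interact with the sodium pump. *Sln*, which encodes sarcolipin, an inhibitor of SERCA pumps, was UP with few counts, 3 and 6 in control against 18 and 21 with *Ash1L* shRNA. Calls were lost without control sample 2 for *Fxyd1* (-0.55), *Nkain2* (-0.46), *Nkain4* (-0.80), *Sln* (1.93) and *Atp2c2* (1.605), without control sample 1 for *Nkain4* (-0.90) and *Atp2c2* (2.003), and without *Ash1L* shRNA sample 2 for *Nkain2* (-0.45), *Sln* (1.80) and *Atp2c2* (0.54), with the log2 fold change of that fit in parentheses.

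Other genes that move calcium were counted in 3 lists, where 16.9% of all genes tested were DOWN or UP. Of 9 sodium-calcium exchanger genes, 1 was DOWN and 0 were UP, with a median of -0.09. The DOWN gene was *Slc8a2*, a neuronal plasma membrane exchanger, with 225 and 262 CPM in control and 200 and 154 CPM in *Ash1L* shRNA samples, and it fell by 0.46 on the log2 scale (SE 0.16). *Slc8a1*, its more widely expressed relative, was not called, at -0.09 (SE 0.13). Among 16 genes of the ER calcium store, 1 was DOWN and 2 were UP, with a median of 0.08. *Itpr1*, the receptor through which inositol trisphosphate releases stored calcium, had 1582 and 1602 CPM in control and 1286 and 1010 CPM in *Ash1L* shRNA samples and fell by 0.47 on the log2 scale (SE 0.15). *Orai2*, a pore of store-operated calcium entry, had 91.5 and 83.6 CPM in control and 120 and 165 CPM in *Ash1L* shRNA samples and rose by 0.70 (SE 0.17). *Stim2*, an ER calcium sensor that opens such pores, rose by 0.27 (SE 0.11). Of 8 genes of mitochondrial calcium uptake, 0 were DOWN and 1 was UP, *Mcub* (listed as *Ccdc109b*), whose counts were 34 and 63 in control against 119 and 94 with *Ash1L* shRNA. *Orai2* was called in each of the 4 fits without 1 sample. Calls were lost without control sample 2 for *Slc8a2* (-0.35), *Itpr1* (-0.47), *Stim2* (0.21) and *Mcub* (0.88), without control sample 1 for *Itpr1* (-0.47) and *Stim2* (0.34), and without *Ash1L* shRNA sample 2 for *Slc8a2* (-0.28) and *Stim2* (0.23). Across these lists, no adjusted p from edgeR's quasi-likelihood test was under 0.05.

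**Figure D5:**
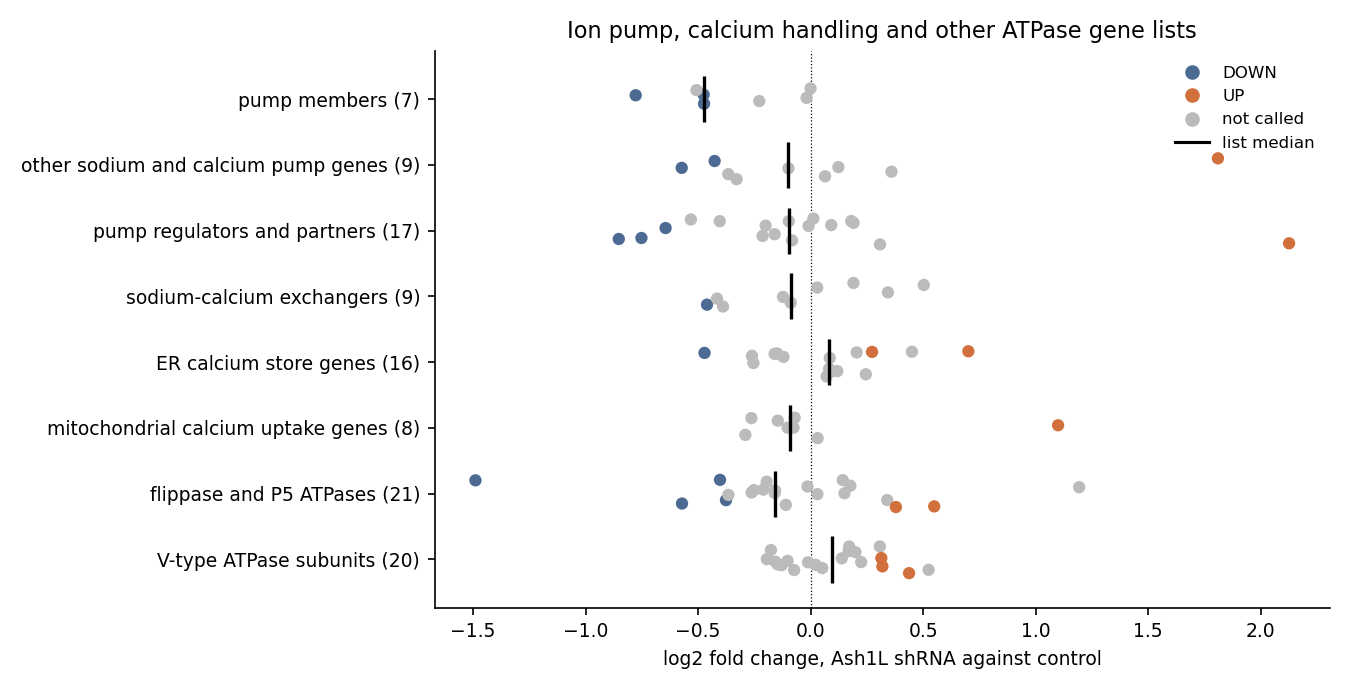
Log2 fold change of each tested gene in the pump, calcium handling and ATPase lists, *Ash1L* shRNA against control, with the median of each list as a bar and DOWN and UP genes coloured. The median of the 7 pump genes is -0.47, and the medians of the other lists lie between -0.16 and 0.09.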

How the data were processed

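Total RNA of 2 control and 2 *Ash1L* shRNA PFC samples was sequenced after ribosomal depletion, with a stranded kit. The authors used RNA STAR for alignment to mm10 and featureCounts for counting, and what they deposited are unnormalized whole counts, 1 for each symbol. The labels describe Cutadapt and TopHat2, which the methods do not name. Depth was lowest in control sample 1, with 14251190 counts.

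Genes were filtered with filterByExpr, scaled with TMM and tested with the robust quasi-likelihood F test of edgeR 4.0.16 (R 4.3.3), with *Ash1L* shRNA compared to control and p-values adjusted by Benjamini-Hochberg over 16232 genes. The cutoffs for DOWN and UP are those of the study, which applied them to a DESeq2 test. Dividing the log2 fold change by the root of F gave the SE. Ratios of counts within a sample were compared with two-sided exact permutation tests. RPKM used exonic lengths of GENCODE vM21, matched for 93.6% of tested genes. The longest run of identical bases between transcripts of members of a pump family was 44 bases, for *Atp2a2* and *Atp2a3*. Replicates within a group were not repeats of 1 library, since a chi-square test of their counts gave 14.8 (control) and 42.3 (*Ash1L* shRNA) per degree of freedom.

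Alternatives were the edgeR likelihood ratio test, DESeq2 1.42.0, scaling by RLE, upper quartile or library size, testing without a filter, a minimum of 10 counts per sample, a block for the replicate number, a limit of 1.5-fold, and leaving out each sample. The named genes are the members, *Ash1l*, the called genes and range ends of each list, and for each member the gene nearest in profile. *Nme7*, *Gfap*, *Aqp4*, *Sox9* and *Slc8a1* were named after their values were seen. Certain genes selected by the rule are not reported here. Members, gene lists and markers were chosen with earlier results of these data known. All gene lists and markers were taken by symbol. An older symbol was used for 5 mitochondrial uptake genes, 1 exchanger gene, 1 ER store gene and 1 striatal marker.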

Additional observations from a re-analysis of the deposited data

How the results depend on the processing

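The number of DOWN pump genes, 3, was 1 at a 1.5-fold limit and ran from 1 (without control sample 2 or without *Ash1L* shRNA sample 2) to 4 (without *Ash1L* shRNA sample 1) when samples were left out in turn. It was 2 under upper-quartile scaling, where *Atp1b1* was not called, and 4 under the likelihood ratio test and DESeq2, where *Atp2b1* was called. Over all genes, DOWN genes numbered 491 and UP genes 765 at a 1.5-fold limit, and with samples left out they ran from 306 to 2718 and from 423 to 2368. Among the alternatives, 4 pump genes had an adjusted p under 0.05 only without *Ash1L* shRNA sample 1, where 2502 genes did and the lone sample is assumed to vary like the control group. Over all genes, the number at an adjusted p under 0.05 was 1 in the quasi-likelihood test, 479 in the likelihood ratio test, 420 in DESeq2 and 34 without a filter. The log2 fold change of *Atp2a2* turned positive under RLE (0.0012), upper-quartile (0.016) and library-size scaling (0.040) and under the filter of 10 counts (0.0074), and ran from -0.0045 to 0.0025 with samples left out. That of *Atp2b4* turned positive under library-size scaling (0.026) and ran from -0.25 to 0.18. Library-size scaling moved the median of all genes by 0.04.

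Same-numbered samples did not deviate together (r = -0.11 across 16232 genes), and no source says that they share a batch. With the replicate number as a block, 2 pump genes were DOWN, with an adjusted p under 0.05 for 0 genes in all and an unadjusted p under 0.05 for 2072, and *Atp1b1* was no longer called. The crossed pairing, added after the data were seen, gave 4 DOWN pump genes and an adjusted p under 0.05 for 16 genes. Offsets for gene length and GC content, also added after the data were seen, left 3 pump genes DOWN. *Atp2a3* was called in 14 of 15 alternatives, *Atp2b2* in 13, *Atp1b1* in 11 and *Atp2b1* in 4. Of 20 named genes outside the pump genes, 1 kept its call and 20 kept their sign in all fits with 1 sample left out. The causes of these differences were not tested. Counts of 164 to 594 for *Atp2a3* give it the largest counting error among the pump genes.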

Other observations

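The V-type ATPase acidifies vesicles and lysosomes, and of 20 tested subunits 0 were DOWN and 3 were UP, with a median log2 fold change of 0.09. Over all genes tested, 8.28% were DOWN and 8.61% UP, or 16.9% in either direction, so the share called among the subunits was near that of all genes. *Atp6v1b2* had 740 and 741 CPM in control and 955 and 1052 CPM in *Ash1L* shRNA samples and rose by 0.44 (SE 0.12). *Atp6v1a*, the catalytic subunit, had 720 and 746 CPM in control and 882 and 942 CPM in *Ash1L* shRNA samples and rose by 0.31 (SE 0.11). *Atp6ap2*, an accessory protein, had 278 and 307 CPM in control and 365 CPM in both *Ash1L* shRNA samples and rose by 0.32 (SE 0.11). Without control sample 1 or 2 none of these 3 was called, at log2 fold changes of 0.45 and 0.43 for *Atp6v1b2*, 0.30 and 0.34 for *Atp6v1a*, and 0.26 and 0.39 for *Atp6ap2*. *Atp6v1a* was not called without *Ash1L* shRNA sample 2 either (0.27).

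Among 21 tested flippase, P5 and copper-transporting ATPases, 4 were DOWN and 2 were UP, with a median of -0.16. The share of all genes called in either direction was 16.9%. *Atp10a*, a flippase, had 22.2 and 21.95 CPM in control and 15.3 and 14.4 CPM in *Ash1L* shRNA samples and fell by 0.57 (SE 0.14). *Atp9b* fell by 0.38 (SE 0.11), *Atp8b2* by 0.40 (SE 0.13) and *Atp8b4*, with 9 to 73 counts in a sample, by 1.49 (SE 0.56). *Atp7a*, a copper exporter, had 26.7 and 22.1 CPM in control and 33.7 and 37.6 CPM in *Ash1L* shRNA samples and rose by 0.55 (SE 0.15). *Atp13a3* rose by 0.38 (SE 0.15). Calls were lost without control sample 1 for *Atp10a* (-0.55), *Atp9b* (-0.38), *Atp8b2* (-0.30) and *Atp13a3* (0.41), without control sample 2 for *Atp9b* (-0.36), *Atp8b4* (-0.74), *Atp7a* (0.41) and *Atp13a3* (0.35), and without *Ash1L* shRNA sample 2 for *Atp8b2* (-0.28), *Atp8b4* (-1.26) and *Atp13a3* (0.17). No adjusted p from edgeR's quasi-likelihood test was under 0.05 in either list.

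The genes nearest in profile to further pump genes were *Kitl* for *Atp1b2* (Euclidean distance 0.00576), *Slc35c2* for *Atp2a2* (0.0131) and *Apba1* for *Atp2b4* (0.0566), over 4 samples.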
